A study of Bos taurus with 6 samples.

Results

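Several entries of miRNA catalogues lie in, or resemble, other small structured RNAs, and 8 such entries were followed in the liver of grass-fed and grain-fed Wye Angus cattle. They are bta-miR-1246, bta-miR-1248, bta-miR-1260b, bta-miR-1291, bta-miR-1839, bta-miR-664a, bta-miR-664b and bta-miR-4449, which make up 8 of the 1030 mature miRNAs listed in the files. The entries were chosen by what is known or suspected of their source RNA and not by a threshold, but their differences between the diets had been seen before, so these differences are described here without a p-value for any entry. Small RNA was sequenced from liver of 3 steers of the grass-fed group, 21 months old and kept mainly on alfalfa, hay or pasture, and of 3 steers of the grain-fed group, 14 months old and kept mainly on corn silage, shelled corn and soybean. Each library came from 1 animal of a closed herd, and diet and age cannot be told apart. In bulk tissue, fewer cells of a type and less RNA per cell cannot be told apart either.

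The source RNAs belong to different machines of the cell. H/ACA snoRNAs guide the conversion of uridine to pseudouridine in ribosomal and spliceosomal RNA, and most of them are cut from introns of host genes in mammals. The U2 snRNA pairs with the branch site of an intron in the spliceosome, and tRNAs carry amino acids to the ribosome. All of these RNAs are far more abundant than most miRNAs, and short pieces of them enter small RNA libraries, where they are counted as a miRNA if a catalogue entry has the same sequence.

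The entries were put in classes from general knowledge of the human entries. bta-miR-1248, bta-miR-1291, bta-miR-1839, bta-miR-664a and bta-miR-664b were put in the snoRNA class. bta-miR-1246 was put in the class of the U2 snRNA and bta-miR-1260b in the tRNA class. The place of bta-miR-1839 was unsure. bta-miR-4449 was given no class. The classes are a grouping by name, since mature sequences were not analysed here and fragments could not be matched to a source RNA. By the RefSeq gene table of ARS-UCD2.0, all 9 precursors of the 8 entries were found by name. That assembly is later than the ARS-UCD1.2 named for the files. Of the precursors, 8 overlapped another gene, here called a host gene that holds them or that they lie within. Overlap was judged by position, without a check of strand or full containment. None of the 9 overlapped any of the 636 snoRNA, 975 snRNA or 2325 tRNA genes of that annotation. The host genes nevertheless held other snoRNA genes in some cases. EIF4A2, the gene of a translation initiation helicase, holds 1 precursor of bta-miR-1248 and 3 annotated snoRNA genes. KANSL2, which encodes a subunit of a histone acetyltransferase complex, holds bta-miR-1291 and 2 snoRNA genes. The lncRNA genes LOC132345517 and DANCR both hold bta-miR-4449, and 1 snoRNA gene was counted over them together. bta-miR-664a lies within DKC1, the gene of dyskerin, which is itself the pseudouridine synthase of H/ACA particles, and bta-miR-664b within RAB3GAP2. bta-miR-1260b lies within MAML2, a coactivator of Notch signalling, bta-miR-1839 within MROH1, and bta-miR-1246 within no listed gene.

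The libraries differed in their total of miRNA counts along with diet. The paper reports similar raw read numbers for both groups, with fewer clean reads and a lower mapped share in the grain-fed group. The total is therefore not the sequencing depth. Over all mature miRNAs, the grass-fed libraries held 3824592 to 6133960 counts and the grain-fed libraries 464875 to 892929, and the median total of the grass-fed group was 8.0 times that of the grain-fed group. Levels are given as CPM, counts put on a common library size after scaling by TMM, a method that centres the libraries on the bulk of the miRNAs. A count of 0, taken to allow up to 3 counts, left room for a level of 0.632 to 0.787 CPM in the grass-fed and of 2.92 to 5.32 CPM in the grain-fed libraries, for counting error only. bta-miR-122, the defining miRNA of hepatocytes, was abundant throughout, with 26.2 to 31.7% of the counts of a grass-fed library and 14.9 to 21.6% of those of a grain-fed library, and all 5 hepatocyte markers had counts in every library. Their sum was 516700 to 820800 CPM in the grass-fed and 328300 to 389900 CPM in the grain-fed libraries, without overlap, and 2 of the 5 were called higher in grass-fed liver. Marker miRNAs of the pancreas summed to 32.3 to 36.0 CPM in the grass-fed libraries and to 90.6, 136 and 14.2 CPM for replicates 1, 2 and 3 of the grain-fed group, and 3 of the 4 passed FDR 0.1 in the direction of the grain-fed group. In grain-fed replicate 3 the same 3 markers, bta-miR-216a, bta-miR-216b and bta-miR-217, were at 0 counts, while bta-miR-1246, bta-miR-1248 and bta-miR-4449 were at 2684, 369 and 26.6 CPM. Erythroid markers summed to 419 to 643 CPM in the grass-fed and 465 to 666 CPM in the grain-fed libraries, and skeletal muscle markers to 316 to 527 and 198 to 358 CPM, with overlap. Leukocyte markers summed to 676 to 863 CPM in the grass-fed and 868 to 1075 CPM in the grain-fed libraries. These ranges barely missed each other, and 0 of the 4 leukocyte markers were called in either direction. The part that the totals of miRNA counts or these markers have in the differences below was not tested. Only the values without single libraries and without both grain-fed replicates 1 and 2 are given.

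Of the 8 entries, 7 had counts in every library and were tested, while bta-miR-664a had 0 counts in all 6. The entries did not share a direction, and neither did those of the snoRNA class. bta-miR-1246, bta-miR-1248, bta-miR-1291 and bta-miR-4449 were lower in the grass-fed group, bta-miR-1260b and bta-miR-664b were higher, and bta-miR-1839 was nearly level. In the edgeR quasi-likelihood test over all 456 tested miRNAs at FDR 0.1, 4 of the 7 were called lower and 2 called higher in grass-fed liver. Among all tested miRNAs 9.65% were called lower and 9.43% higher. The paper, also with edgeR at FDR 0.1, reported most of its differentially expressed miRNAs as lower in grass-fed liver. It names neither its scaling nor the edgeR test used. The near balance of directions found here depended on the TMM scaling. Libraries scaled by total counts alone gave 74 calls over all tested miRNAs, and 65 of these pointed to lower levels in grass-fed liver. Upper-quartile normalization gave 124 calls, 42 of them in that direction. The CPM ranges of the groups did not overlap for 6 of the 7, and for 32.9% of all tested miRNAs. These entries had been picked with the contrast known, so their counts are not read against those shares. For grass-fed over grain-fed, the median log2 fold change was -1.14 over the 7 and 0.13 over everything tested.

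**Figure D1:**
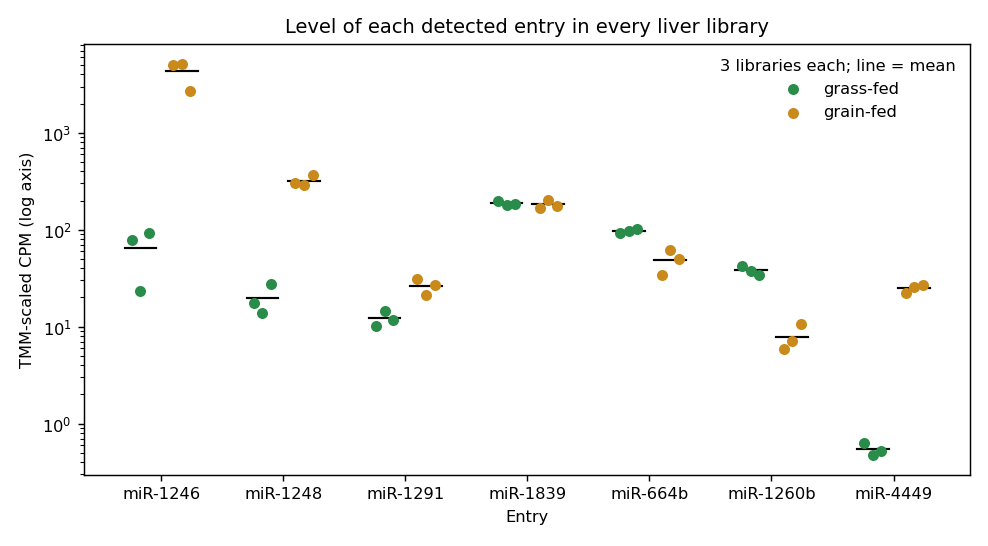
TMM-scaled CPM on a log axis for the 7 detected entries, 1 point per library, with grass-fed libraries in green, grain-fed libraries in orange and a black line at the mean of 3 libraries. The points of bta-miR-1246, bta-miR-1248 and bta-miR-4449 are far apart between the diets, those of bta-miR-1839 lie between 168 and 202 CPM in both groups, and bta-miR-1260b and bta-miR-664b are the entries with the grass-fed points on top.

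The entry of the U2 snRNA class showed the widest gap in CPM. Grass-fed replicates 1, 2 and 3 had 77.9, 23.3 and 93.2 CPM of bta-miR-1246, from 370, 99 and 355 counts. In grain-fed replicates 1, 2 and 3 it had 5023, 5184 and 2684 CPM, from 5157, 3661 and 1513 counts. Every grain-fed library was thus far above every grass-fed library. Each grain-fed library also held more raw counts of the entry although its total of miRNA counts was lower. The mean was 64.8 ± 36.7 CPM in the grass-fed group (SD, n = 3) and 4297 CPM in the grain-fed group (n = 3, SD 32.6% of the mean), a 66.3-fold difference of means. The fitted log2 fold change was -6.05 ± 0.49 (SE). By mean CPM bta-miR-1246 ranked 145 among the 456 tested miRNAs in grass-fed liver and 25 in grain-fed liver. Only 2 tested miRNAs had a lower log2 fold change. It was also the least even of the 7 entries within both groups. The highest grass-fed library had 3.99 times the lowest, with a coefficient of variation of 56.7%, and the highest grain-fed library 1.93 times the lowest. The median coefficient of variation of the tested miRNAs was 25.7% in the grass-fed and 35.9% in the grain-fed group. The low grass-fed value came from replicate 2, which had the smallest TMM factor, 0.692, and the low grain-fed value from replicate 3. Without any 1 library the log2 fold change lay between -6.47 and -5.67.

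In the snoRNA class, bta-miR-1248 had the largest difference. It is listed under 2 precursors, in EIF4A2 and in MYO5A, whose counts were equal in 4 libraries and differed by 1 in the other 2, so the reads cannot be given to either gene. bta-miR-1248 had 17.5, 13.9 and 27.6 CPM in grass-fed replicates 1, 2 and 3, from 83, 59 and 105 counts. The grain-fed libraries had 303, 289 and 369 CPM, from 311, 204 and 208 counts. The groups lay 16.3-fold apart in their means, 19.6 ± 7.08 and 320 ± 42.8 CPM (SD, n = 3 each). The fitted log2 fold change was -4.03 ± 0.30 (SE). Its rank by mean CPM was 202 in grass-fed and 91 in grain-fed liver. The low and high libraries were not those of bta-miR-1246 in both groups, since grass-fed replicate 2 was the lowest for both entries, but grain-fed replicate 3 was the lowest for bta-miR-1246 and the highest for bta-miR-1248. The ratio of bta-miR-1246 to bta-miR-1248 counts within a library was accordingly 4.46, 1.68 and 3.38 in the grass-fed and 16.6, 17.9 and 7.27 in the grain-fed group.

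bta-miR-1291 moved in the same direction by far less. It had 10.1, 14.6 and 11.8 CPM in grass-fed and 31.2, 21.2 and 26.6 CPM in grain-fed replicates 1, 2 and 3, from 45 to 62 and from 15 to 32 counts. The ranges did not overlap, with a 2.16-fold difference of means, and the fit gave -1.14 ± 0.32 (SE) on the log2 scale. The call was lost without grain-fed replicate 1, the highest library, where the log2 fold change was -1.02. Within the grass-fed group the order of the libraries differed from that of bta-miR-1246 and bta-miR-1248. Replicate 2 was the lowest for those entries and the highest for bta-miR-1291.

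bta-miR-1839 was the most even entry in grass-fed liver. Its level was 196, 180 and 185 CPM in the 3 grass-fed libraries, in order of replicate, and 168, 202 and 177 CPM in the 3 grain-fed ones. The groups overlapped, and the means of 187 ± 8.36 and 182 ± 18.0 CPM (SD, n = 3 each) differed by less than the spread within the grain-fed group. Its log2 fold change of 0.04 ± 0.21 (SE) was not called and changed sign with the scaling, from -0.36 with total counts alone to 0.23 with upper-quartile normalization. With 2399 counts in the grass-fed and 415 in the grain-fed libraries, the ratio of the pooled levels was 1.04 with a 95% interval from 0.934 to 1.15 (exact, counting error only). Its coefficients of variation, 4.47% and 9.87%, were well under the medians over all tested miRNAs. Those medians include miRNAs with few counts, where counting error is large, and entries of similar counts were not compared.

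The pair named miR-664 split by detection. bta-miR-664a, within DKC1, had no count in any library, which allows a level of up to 0.234 CPM over the grass-fed and 1.31 CPM over the grain-fed group with 3 counts per group as the floor, and no fold change can be given. bta-miR-664b, within RAB3GAP2, had 91.8, 97.3 and 103 CPM in grass-fed replicates 1, 2 and 3, from 436, 413 and 392 counts. In grain-fed replicates 1, 2 and 3 it had 34.1, 62.3 and 49.7 CPM, from 35, 44 and 28 counts. The grass-fed libraries were all higher, and the means of 97.3 ± 5.55 and 48.7 ± 14.1 CPM (SD, n = 3 each) were 2.0-fold apart. The coefficient of variation was 5.70% in the grass-fed and 29.0% in the grain-fed group. Counting error is larger at the low grain-fed counts, and its part in that contrast was not tested. The log2 fold change of 1.03 ± 0.27 (SE) stood opposite to those of bta-miR-1248 and bta-miR-1291. The call was lost without grain-fed replicate 1, the lowest library, at 0.74, and with libraries scaled by total counts alone, at 0.63.

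The snoRNA class therefore had 2 entries called lower, 1 called higher, 1 not called and 1 without counts. Of everything tested, 9.65% were called lower and 9.43% higher, but these entries had been picked with the contrast known. The calls of bta-miR-1291 and bta-miR-664b were lost without grain-fed replicate 1. The log2 fold changes within it spanned 5.06, from that of bta-miR-1248 to that of bta-miR-664b. Summed over the 5 entries, the class stood at 316, 306 and 327 CPM in grass-fed and at 536, 575 and 623 CPM in grain-fed replicates 1, 2 and 3. bta-miR-1248 made up 6.17% of that sum on average in the grass-fed and 55.4% in the grain-fed group. Without bta-miR-1248 the sum was 296 ± 3.90 CPM in the grass-fed and 257 ± 26.8 CPM in the grain-fed group (SD, n = 3 each). That order depended on the scaling, since with total counts alone, tried after the data had been seen, the sum was 260 ± 50.9 CPM in the grass-fed and 298 ± 26.6 CPM in the grain-fed group (SD, n = 3 each), with overlap.

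The entry of the tRNA class was the one with the largest increase in grass-fed liver. bta-miR-1260b had 42.5, 37.7 and 33.9 CPM in grass-fed replicates 1, 2 and 3, from 202, 160 and 129 counts. The grain-fed libraries had 5.84, 7.08 and 10.6 CPM, from only 6, 5 and 6 counts, 17 in all. Each grass-fed library was above each grain-fed library, and the means of 38.0 ± 4.35 and 7.86 ± 2.49 CPM (SD, n = 3 each) were 4.84-fold apart. The fit gave 2.35 ± 0.38 (SE) on the log2 scale. With so few grain-fed counts, the ratio of the pooled levels, 5.18, had a 95% interval from 3.20 to 8.97 (exact, counting error only). bta-miR-1260b ranked 163 by mean CPM in grass-fed and 274 in grain-fed liver. By log2 fold change it was number 14 from the highest. It was called without any 1 library, but against grain-fed replicate 3 alone the log2 fold change of 1.78 was not.

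bta-miR-4449, without a class, was close to the limit of detection in grass-fed liver. It had 3, 2 and 2 counts in grass-fed replicates 1, 2 and 3, or 0.632, 0.471 and 0.525 CPM, at or under the level that 3 counts give. The grain-fed libraries had 23, 18 and 15 counts, or 22.4, 25.5 and 26.6 CPM, and thus more counts from a smaller total of miRNA counts. The ratio of the pooled levels, grain-fed over grass-fed, was 44.6, and its 95% interval ran from 20.3 to 116 (exact, counting error only). The fitted log2 fold change was -5.37 ± 0.43 (SE), next to that of bta-miR-1246 in rank. Among the 7 entries it had the lowest coefficient of variation in grain-fed liver, 8.77%. With 15 to 23 counts per library, counting error is too large for that value to show an even level.

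**Figure D2:**
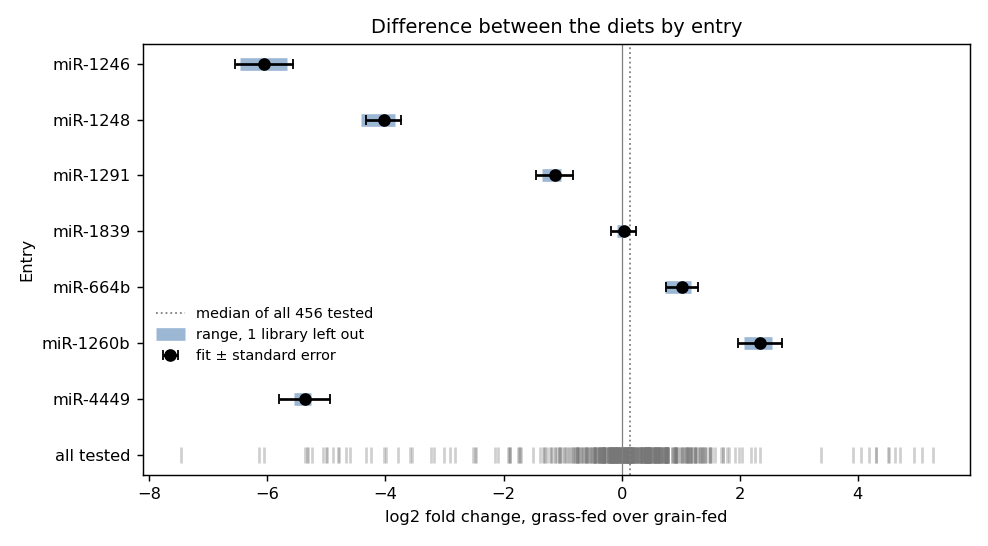
Log2 fold change of grass-fed over grain-fed for each detected entry, with the edgeR estimate and its standard error in black and the range with each library left out in turn as a blue bar. The bottom row marks all 456 tested miRNAs and the dotted line their median of 0.13. bta-miR-1246, bta-miR-1248 and bta-miR-4449 lie at -6.05, -4.03 and -5.37, in the sparse left tail of the bottom row, and bta-miR-1839 lies near 0 with a sign that depends on the scaling.

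The order of the entries by level differed between the diets. In grass-fed liver the order of the mean CPM was bta-miR-1839, bta-miR-664b, bta-miR-1246, bta-miR-1260b, bta-miR-1248, bta-miR-1291 and bta-miR-4449. Of these neighbours, bta-miR-664b and bta-miR-1246, bta-miR-1246 and bta-miR-1260b, and bta-miR-1248 and bta-miR-1291 had overlapping ranges. In grain-fed liver the order was bta-miR-1246, bta-miR-1248, bta-miR-1839, bta-miR-664b, bta-miR-1291, bta-miR-4449 and bta-miR-1260b, and only the ranges of bta-miR-1291 and bta-miR-4449 overlapped among neighbours. bta-miR-1260b thus stood last of the detected entries in grain-fed liver, and bta-miR-1246 first. The 8 entries together amounted to 367 to 454 CPM in the grass-fed and to 3344 to 5791 CPM in the grain-fed libraries, where most of the sum was bta-miR-1246.

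Ratios of counts within a library need no scaling between libraries. bta-miR-1839 was taken as the denominator after its even level had been seen. For each count of bta-miR-1839, grass-fed replicates 1, 2 and 3 held 0.397, 0.130 and 0.505 counts of bta-miR-1246, and grain-fed replicates 1, 2 and 3 held 30.0, 25.6 and 15.1. For bta-miR-1248 the same ratio was 0.0891, 0.0772 and 0.149 in the grass-fed and 1.81, 1.43 and 2.08 in the grain-fed group. bta-miR-1248 was therefore the scarcer of the 2 snoRNA-class entries in every grass-fed library and the more abundant one in every grain-fed library. bta-miR-664b fell the other way, with 0.468, 0.541 and 0.558 counts per count of bta-miR-1839 in the grass-fed and 0.203, 0.308 and 0.280 in the grain-fed group. None of the 6 entries had overlapping ratios between the diets. These are the entries whose CPM ranges did not overlap, and the denominator was nearly level, so the ratios largely repeat that result. The share of all tested miRNAs with such ratios was not computed. Set directly against each other, bta-miR-1246 and bta-miR-1260b gave the widest gap of the 10 ratios computed. There were 1.83, 0.619 and 2.75 counts of bta-miR-1246 per count of bta-miR-1260b in the grass-fed libraries and 860, 732 and 252 in the grain-fed libraries. bta-miR-1260b and bta-miR-664b, the 2 entries higher in grass-fed liver, also differed in their ratio, which was 0.463, 0.387 and 0.329 in the grass-fed and 0.171, 0.114 and 0.214 in the grain-fed libraries.

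**Figure D3:**
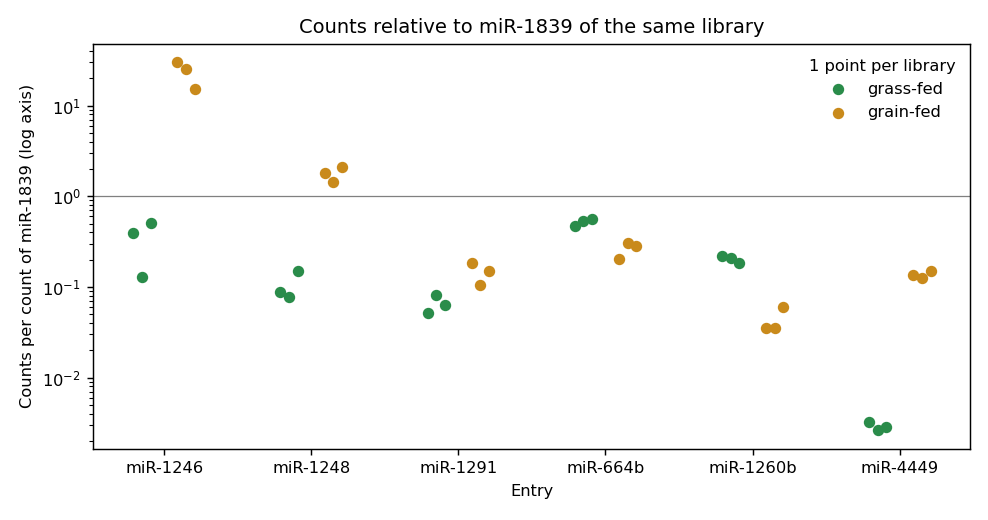
Counts of 6 entries divided by the counts of bta-miR-1839 in the same library, on a log axis, with 1 point per library, grass-fed in green and grain-fed in orange. The grain-fed points are higher for bta-miR-1246, bta-miR-1248, bta-miR-1291 and bta-miR-4449 and lower for bta-miR-664b and bta-miR-1260b, with no overlap between the diets for any of the 6. As bta-miR-1839 was chosen for its even level, the ratios largely repeat the differences in CPM.

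The scaling of the libraries shifted all entries together. Over all tested miRNAs the median difference was 0.13 on the log2 scale with TMM, -0.29 with total counts alone and 0.31 with upper-quartile normalization. Relative to that median, bta-miR-1246 lay between -6.19 and -6.08 and bta-miR-1248 between -4.16 and -4.13 over the 5 scalings tried. On the same relative scale bta-miR-4449 lay between -5.51 and -5.50, bta-miR-1291 between -1.28 and -1.27, and bta-miR-1839 between -0.10 and -0.07. bta-miR-664b lay 0.89 to 0.92 and bta-miR-1260b 2.21 to 2.23 above the median. A scaling acts on a whole library at once, so subtracting the median takes out most of its effect. The narrow ranges follow from that step and are no test of the entries. The direction of each entry but bta-miR-1839 was the same under all 5 scalings, with bta-miR-664b not called with total counts alone. Each of the 5 rests on miRNA counts, and scaling by all mapped reads was not tried. In raw counts bta-miR-1291 was higher in the grass-fed group, at 155 against 62, opposite to its direction in CPM. bta-miR-1246, bta-miR-1248 and bta-miR-4449 had more raw counts in the grain-fed group.

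**Figure D4:**
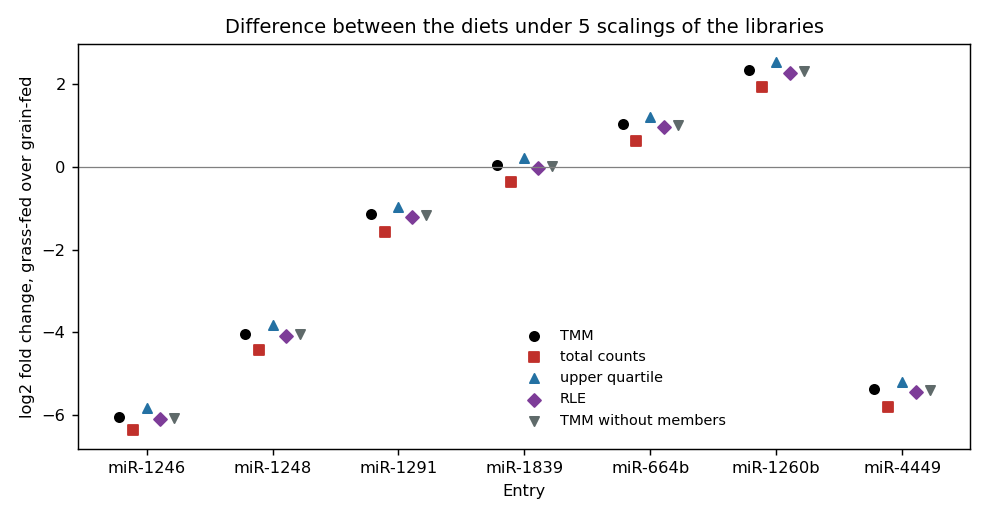
Log2 fold change of grass-fed over grain-fed for each detected entry under 5 scalings of the libraries, each with its own symbol. All entries shift by nearly the same amount between scalings, as a scaling acts on a whole library at once. bta-miR-1839 is the entry whose points fall on both sides of 0, from -0.36 to 0.23.

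Other entries give a frame for these values. The 23 other entries with a miRBase number of 4 digits that starts with 12 or 13 carry numbers near those of 4 of the 8. Of these, 10 had no count in any library, and 8 were tested, of which 2 were called higher and 6 were not called. Their median log2 fold change was 0.66. bta-miR-1307, the most abundant, had 230, 333 and 197 CPM in grass-fed and 151, 115 and 135 CPM in grain-fed replicates 1, 2 and 3, and a fitted log2 fold change of 0.92 ± 0.26 (SE). bta-miR-1271, the next, had 49.4 to 54.9 and 16.0 to 40.9 CPM and was not called. Of the 23 entries from bta-miR-2881 to bta-miR-2904, 18 had no count and all 3 that were tested were called lower in grass-fed liver. bta-miR-2887 had 4.42, 8.01 and 6.04 CPM in grass-fed and 105, 190 and 461 CPM in grain-fed replicates 1, 2 and 3, and bta-miR-2904 had 42.8 to 62.2 and 75.0 to 156 CPM. Unlike bta-miR-1246, which was lowest of the grain-fed group in replicate 3, both of these were highest there. The difference between these lists and the 8 entries was not tested.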

How the data were processed

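Small RNA libraries of 6 livers were analysed, grouped by the sample labels. The authors trimmed adapters, dropped low-quality reads and those outside a length range, aligned the remainder to ARS-UCD1.2 and quantified miRBase miRNAs by miRDeep2, whose version is not given in the sources used here. Submitters' processing notes name FastQC 0.11.5 and Trimmomatic 0.36. The deposited counts are raw, 1 for each of 1207 pairs of mature miRNA and precursor. The CPM column deposited by the authors divides them by the library's total over pairs and was used only to check the counts.

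Each mature miRNA was given its largest count over precursors. Those above 2 counts in 2 or more libraries were scaled by TMM and fitted with the quasi-likelihood test of edgeR 4.0.16 in R 4.3.3, with Benjamini-Hochberg adjustment over all 456 and FDR 0.1, as the study's filter and threshold. Standard errors are those implied by the F statistic. Intervals of pooled ratios are exact binomial (scipy 1.17.1). The fit was tested on simulated data. Alternatives were other scalings, filters and precursor rules, DESeq2 1.42.0, limma-voom (limma 3.58.1), the edgeR exact test, FDR 0.05, leaving out each library, and a block for the replicate number.

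The members, classes and lists were chosen with earlier results of these data known. All 8 entries are named, and of 2 comparison lists the 2 most abundant each. No 2 replicates agreed within sampling noise. The source classes came from general knowledge.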

Additional observations from a re-analysis of the deposited data

How the results depend on the processing

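The number of entries called lower in grass-fed liver was 4 in 18 of 20 alternatives and 3 in the other 2, which left out grain-fed replicate 1 or both grain-fed replicates 1 and 2. The number called higher was 2 in 17 of 20. It was 1 with total counts alone, 1 without grain-fed replicate 1 against 2 without any other library, and was 0 with grain-fed replicate 3 alone against the grass-fed group. That last setting was chosen after seeing the data, because of the pancreas markers in grain-fed replicates 1 and 2, and its lone library is assumed to vary like the others. In it bta-miR-1246, bta-miR-1248 and bta-miR-4449 were still called lower, while bta-miR-1260b, at 1.78, bta-miR-1291, at -1.20, and bta-miR-664b, at 0.91, kept their direction without a call. Over all tested miRNAs 87 were called, 28 in that setting and 49 to 86 with each library left out (49 without grain-fed replicate 2). The log2 fold change of bta-miR-1839, never called, turned to -0.36 with total counts alone, -0.032 with RLE size factors, -0.033 with DESeq2, -0.028 with separate pairs of miRNA and precursor, -0.0020 with the sum over precursors and -0.089 with at least 10 counts in 3 libraries, and leaving out each library gave -0.074 to 0.059. For the rest of these changes the cause was not tested. With the replicate number as a block, 82 miRNAs were called, and no call of an entry changed. Same-numbered samples did not deviate together (correlations -0.054, -0.20 and -0.011), so the numbers were not taken to pair the animals. Only 17 grain-fed counts of bta-miR-1260b and 7 grass-fed counts of bta-miR-4449 limit the size of their folds.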
